A study of Mus musculus with 56 samples.

Results

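Cirbp and Rbm3, the pair of genes best known for making more RNA when a cell cools, were followed in mouse kidney through the day under opposite feeding schedules. They are 2 of the 17027 genes in the deposited table, picked by name. Hspa8, the gene of a heat shock cognate chaperone, was read beside them as a marker of the opposite kind. The kidneys came from 56 female C57BL/6J mice, 9 weeks old, kept in 12 h of light and 12 h of dark. The sample records give a starting age of 7 weeks and 7 days of entrainment for all groups. Food was given for 7 days in the daytime only (daytime-restricted feeding, DRF) or in the nighttime only (nighttime-restricted feeding, NRF, the reference). Kidneys of each regimen were collected every 4 h from ZT0 to ZT24, where ZT (zeitgeber time) counts the hours since the lights went on, and each of the 14 groups held 4 mice. All mice were on restricted feeding, so no group had food at will, and no body or kidney temperature was among the data used here. Since Cirbp, Rbm3 and Hspa8 were chosen with their daily pattern already known, their levels, rhythms and differences between regimens are given as a description with their spread and without p-values.

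CIRBP and RBM3 are small proteins with 1 RNA recognition motif followed by a glycine-rich tail. Both bind messenger RNA, and both are induced by mild cooling and repressed by mild warming, which lets the daily swing of body temperature drive a daily swing of their RNA. Hspa8 encodes the heat shock cognate chaperone HSC70, and its RNA, like that of many targets of the heat shock factor HSF1, goes up when body temperature rises. In mice, body temperature follows activity and food as well as the clock, and the kidney is a deep organ that follows the core of the body.

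In GRCm38, Cirbp (gene 12696) lies on the plus strand of chromosome 10 at 80165985 to 80172786, and no other annotated gene overlapped it. Rbm3 (gene 19652) lies on the minus strand of the X chromosome at 8138975 to 8145880, where the antisense gene Rbm3os overlaps it on the other strand. The library protocol does not mark strand, so reads of Rbm3 and Rbm3os could not be told apart. Hspa8 (gene 15481) lies on chromosome 9 at 40800984 to 40810087 and holds 3 small nucleolar RNA genes. The Cirbp and Rbm3 proteins are related, and so are their coding sequences, which were identical at 73.3% of 453 aligned bases. The stretch around the longest run that they share is shown because it decides whether a read could belong to either gene, with bases identical in both in capitals (GENCODE M21, coding bases 176 to 226 in each).
Cirbp: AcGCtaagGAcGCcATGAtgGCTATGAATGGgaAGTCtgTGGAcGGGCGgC
Rbm3: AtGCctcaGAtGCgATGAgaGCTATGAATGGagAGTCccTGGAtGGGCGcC
The longest run identical in both was 11 bases. In the table, each value of Cirbp, Rbm3 and Hspa8 in all 56 libraries corresponded to a whole number of reads, from 303 to 1676 reads for Cirbp and from 1535 to 4579 for Rbm3.

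The promoter of Cirbp is shown because a mild-cold responsive element, TCCCCGCC, has been described there as a site for the factor Sp1. The window from RefSeq (GRCm38.p6, plus strand) is chr10:80167589-80167888, 250 bases before to 50 after an annotated start of Cirbp, with the element in capitals.
Cirbp promoter: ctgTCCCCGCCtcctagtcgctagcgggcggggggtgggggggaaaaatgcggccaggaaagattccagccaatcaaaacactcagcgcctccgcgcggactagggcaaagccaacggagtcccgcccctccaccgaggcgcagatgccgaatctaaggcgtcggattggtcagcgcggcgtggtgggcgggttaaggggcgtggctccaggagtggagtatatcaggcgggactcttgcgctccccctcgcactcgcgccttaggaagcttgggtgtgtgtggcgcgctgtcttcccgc
The element began at position -247 from the start. It was found on either strand in 5.38% of 32851 promoter windows of the same length. The same window held 3 GC boxes (GGGCGG, in 35.7% of promoters), none overlapping the element, and 2 CCAAT boxes (CCAAT, in 37.4%). It held neither a heat shock element core (GAANNTTC, in 7.86%) nor an E-box (CACGTG, in 7.15%), searched on both strands. A second RefSeq start of Cirbp, with its window at chr10:80167921-80168220, had 4 GC boxes and no TCCCCGCC. These matches are letters in a window and were not tested as sites.

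Under NRF, Cirbp had 1 broad peak in the fasted light phase and a sharp trough early in the dark. Levels are in TPM, the reads of a gene per length as a share of the library, computed here from recovered reads. At ZT0 the 4 mice had 20, 21, 22.9 and 24.2 TPM. At ZT4 they had 50.5, 55.1, 55.3 and 62.5 TPM, and at ZT8 64.0, 65.1, 72.2 and 81.8 TPM. No mouse at ZT4 or ZT8 came near the ZT0 values, and the ZT8 mean of 70.8 ± 8.20 TPM (SD, n = 4) was the highest of the 14 groups. At ZT12 the values were 41.4, 52.3, 58.6 and 59.7 TPM. At ZT16, 4 h into the dark and the meal, they were 13.5, 14.1, 14.9 and 15.7 TPM. This was the lowest group of the 14 at 14.5 ± 0.975 TPM, 3.64-fold below ZT12, and outside it only DRF ZT12 had a mouse as low as 15.7 TPM. At ZT20 the values were 18.9, 24.9, 25.6 and 25.7 TPM, and at ZT24 they were 24.7, 25.6, 27.4 and 32.2 TPM. The level was thus only partly back for the rest of the night, and the steepest upward step, 2.53-fold, lay between ZT0 and ZT4.

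Under DRF, Cirbp had a trough in the day and another in the night. The ZT0 values were 41.5, 43.2, 55.9 and 56.9 TPM. At ZT4, early in the daytime meal, they were 19.4, 20.8, 21.5 and 24.1 TPM. All 4 mice at ZT4 lay below all 4 at ZT0, with a mean 2.30-fold lower. At ZT8 they were back up, at 35.5, 39.0, 44.3 and 45.3 TPM. At ZT12 they were 15.7, 23.6, 26.1 and 28.7 TPM, and at ZT16 15.9, 17.9, 19.1 and 20.8 TPM. ZT12 and ZT16 overlapped, so the night trough spanned both times. At ZT20 the values were 57.7, 60.2, 63.5 and 64.5 TPM, 3.34-fold above ZT16, which was the largest upward step between neighbouring times for Cirbp in either regimen. At ZT24 they were 43.8, 50.3, 61.8 and 73.4 TPM, the widest spread in TPM of any Cirbp group. The highest group mean was 4.87-fold the lowest under NRF and 3.34-fold under DRF. In the order of the 14 group means, 11 of 13 neighbouring groups overlapped, and gaps lay between NRF ZT16 and DRF ZT16 and between NRF ZT24 (27.5 ± 3.36 TPM) and DRF ZT8 (41.0 ± 4.61 TPM).

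**Figure D1:**
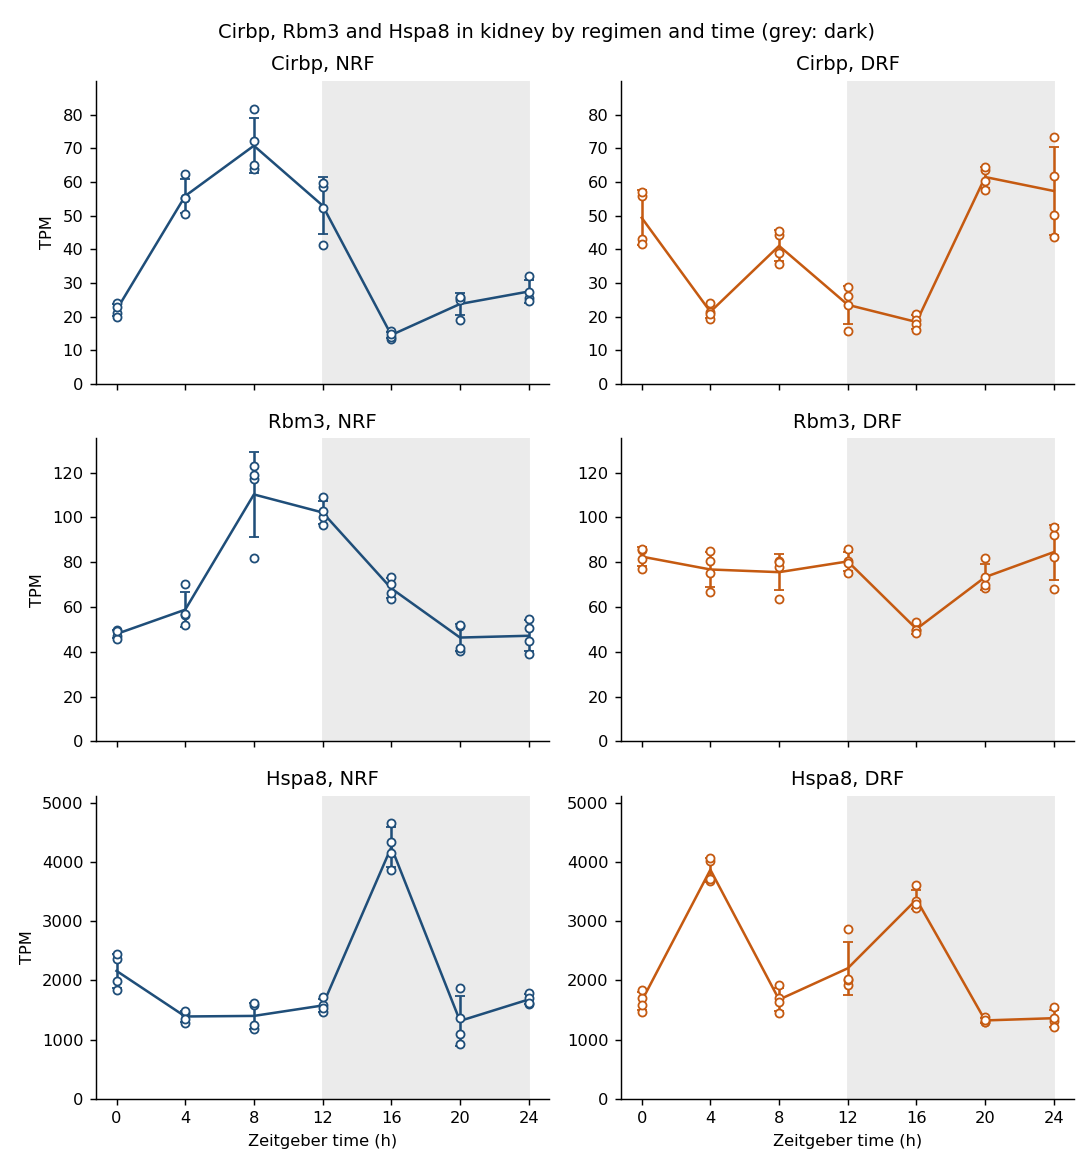
TPM of Cirbp (top), Rbm3 (middle) and Hspa8 (bottom) against zeitgeber time in hours under NRF (left, blue) and DRF (right, orange); each open circle is 1 mouse, lines join group means, bars are SD (n = 4) and the dark phase is grey. The 3 lowest group means of Cirbp are those of the 3 groups in which Hspa8 is highest (NRF ZT16, DRF ZT4 and DRF ZT16), while Rbm3 dips at DRF ZT16 but not at DRF ZT4.

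Rbm3 moved less and later than Cirbp under NRF. Its 4 values were 45.9, 47, 49.1 and 49.9 TPM at ZT0 and 51.8, 56.3, 57.0 and 70.2 TPM at ZT4. At ZT8 they were 82.1, 117, 119 and 123 TPM, and at ZT12 96.8, 100.1, 103 and 109 TPM. The groups at ZT8 and ZT12 overlapped and had the highest means of the 14. At ZT16, when Cirbp was at its lowest, Rbm3 was still at 63.5, 66.1, 70.1 and 73.6 TPM. The low came at ZT20, with 40.3, 41.9, 51.4 and 51.9 TPM, and at ZT24, with 38.9, 44.7, 50.5 and 54.6 TPM. Rbm3 at NRF ZT16 (68.3 ± 4.45 TPM) was therefore above each mouse of NRF ZT20 (46.4 ± 6.13 TPM), whereas Cirbp was in the reverse order at these times.

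Under DRF, Rbm3 held a plateau with 1 dip. The values were 77.2, 81.4, 85.4 and 86.1 TPM at ZT0 and 66.5, 75.2, 80.5 and 84.9 TPM at ZT4. They were 63.8, 77.9, 80.1 and 80.5 TPM at ZT8 and 75.4, 79.5, 80.7 and 85.9 TPM at ZT12. These 4 times overlapped throughout, and the mean at ZT4 was 1.08-fold below ZT0. At ZT16 the values were 48.3, 49.7, 49.7 and 53.1 TPM, 1.60-fold below ZT12 and below each mouse at the other 6 times. At ZT20 they were 68.5, 69.8, 73.4 and 81.8 TPM, and at ZT24 68.2, 82.2, 92.1 and 95.7 TPM. The highest group mean of Rbm3 was 2.38-fold the lowest under NRF and 1.68-fold under DRF. Over all 14 groups, 12 of 13 neighbours in the order overlapped, the gap lying between DRF ZT24 (84.6 ± 12.3 TPM) and NRF ZT12 (102 ± 5.10 TPM).

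To compare the troughs with the peaks of a warm-induced gene, Hspa8 was laid over the same times. At NRF ZT16 its 4 values were 3862, 4148, 4348 and 4656 TPM, at DRF ZT4 3685, 3714, 4024 and 4066 TPM, and at DRF ZT16 3232, 3295, 3337 and 3612 TPM. No mouse of the other 11 groups exceeded 2869 TPM. Those 3 groups had the 3 lowest means of Cirbp, at 14.5 TPM (NRF ZT16), 18.4 TPM (DRF ZT16) and 21.4 TPM (DRF ZT4), the last overlapping NRF ZT0 at 22 ± 1.91 TPM. Rbm3 in the same groups was 68.3, 50.2 and 76.8 TPM, which ranked 6, 4 and 9 from the lowest of 14. The troughs of Rbm3 under NRF, at ZT20, ZT24 and ZT0, came with Hspa8 at 1316 ± 417, 1679 ± 84.1 and 2162 ± 289.6 TPM, far under its peak. At NRF ZT20 Cirbp, too, was low (23.8 ± 3.29 TPM) while Hspa8 was at the lowest group mean of all 14. Low Cirbp was thus seen with and without high Hspa8, and high Hspa8 was not seen with high Cirbp in any group.

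Over the 14 group means of log2(TPM + 1), the correlation of Cirbp with Hspa8 was r = -0.79 (rho = -0.82), with r = -0.71 over the 7 NRF groups and -0.93 over the 7 DRF groups. Rbm3 and Hspa8 had r = -0.15 (rho = -0.13), with -0.04 under NRF and -0.53 under DRF. Cirbp and Rbm3 had r = 0.58 (rho = 0.50). These describe the same groups that chose the genes, groups at neighbouring times share their phase, and so no p-value is attached. The ratio of Cirbp to Rbm3, taken in each mouse from TPM, ran from 0.213 ± 0.0104 at NRF ZT16 to 0.955 ± 0.0860 at NRF ZT4. Under DRF it was lowest at ZT4, at 0.283 ± 0.0464, and highest at ZT20, at 0.841 ± 0.0678.

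**Figure D2:**
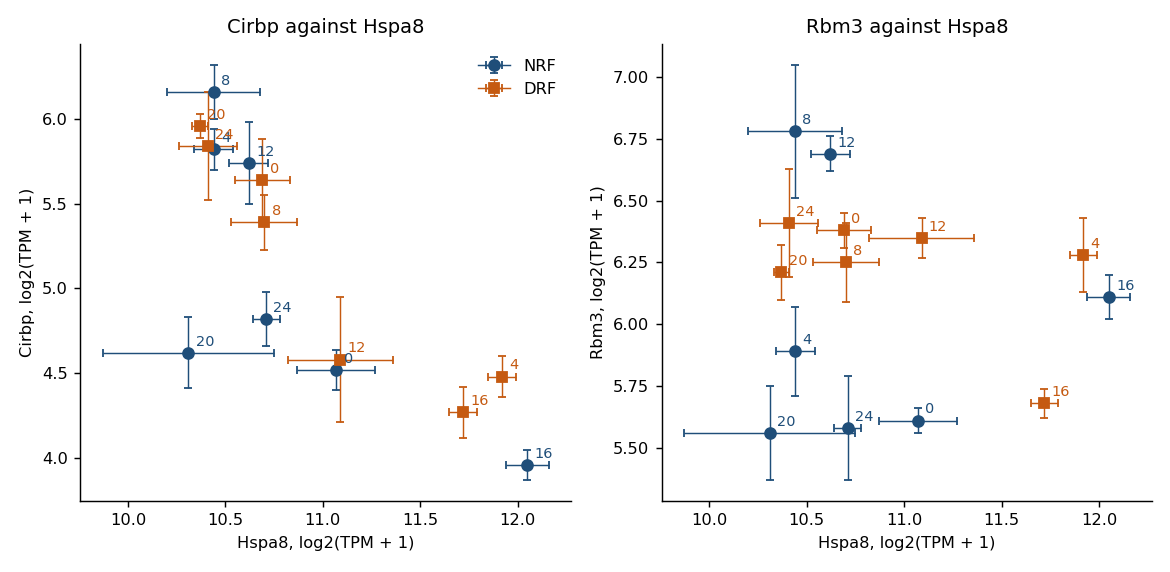
Group means of Cirbp (left) and Rbm3 (right) against those of Hspa8, all as log2(TPM + 1), with SD bars (n = 4), NRF as blue circles and DRF as orange squares; numbers give the zeitgeber time in hours. The 3 groups at the right, NRF 16, DRF 4 and DRF 16, are the lowest for Cirbp, with r = -0.79 over 14 groups, whereas for Rbm3 the groups show r = -0.15.

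The difference between regimens at the same clock time changed sign for Cirbp and Rbm3 alike, but not at the same times. Cirbp was higher under DRF at ZT0 by 1.12 on the log2(TPM + 1) scale (SE 0.14), at ZT20 by 1.34 and at ZT24 by 1.02. It was lower under DRF at ZT4 (-1.34), ZT8 (-0.77) and ZT12 (-1.16), and slightly higher at ZT16 (0.32), with the same SE. The ranges of the 4 mice were apart at all 7 times. Over all genes tested, ranges were apart with DRF higher for 8.19% at ZT0, 4.18% at ZT16, 8.87% at ZT20 and 6.82% at ZT24, and with DRF lower for 11.4% at ZT4, 15.3% at ZT8 and 14% at ZT12. In the other direction the shares were 12.7% lower at ZT0, 7.48% higher at ZT4, 7.36% higher at ZT8, 8.63% higher at ZT12, 7.28% lower at ZT16, 6.57% lower at ZT20 and 14.8% lower at ZT24. Rbm3 was higher under DRF at ZT0 (0.77, SE 0.11), ZT4 (0.38), ZT20 (0.66) and ZT24 (0.83), and lower at ZT8 (-0.53), ZT12 (-0.34) and ZT16 (-0.44). Its ranges were apart at 6 of 7 times and overlapped at ZT4 (58.8 ± 7.91 TPM under NRF and 76.8 ± 7.89 TPM under DRF). At ZT4, Cirbp was 2.60-fold higher under NRF while Rbm3 was 1.30-fold higher under DRF, and Hspa8 was 2.78-fold higher under DRF. At ZT16 the signs were again opposite, with Cirbp 1.27-fold higher under DRF and Rbm3 1.36-fold higher under NRF.

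**Figure D3:**
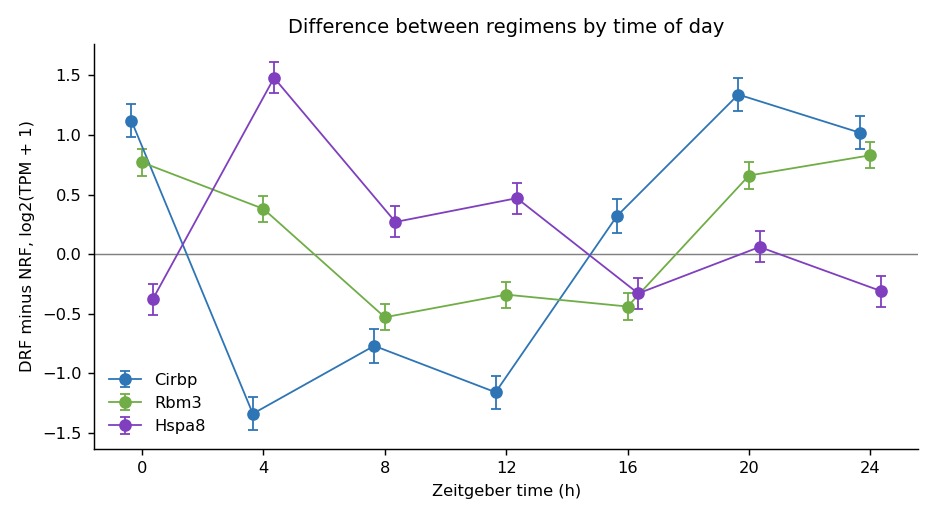
Difference DRF minus NRF on the log2(TPM + 1) scale (y) at each zeitgeber time in hours (x) for Cirbp (blue), Rbm3 (green) and Hspa8 (purple); bars are SE from the limma fit of all 56 mice. At ZT4 Cirbp is at -1.34 while Rbm3 is at 0.38 and Hspa8 at 1.48.

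A cosine summarised each profile. Under NRF the 24-h cosine of Cirbp had an amplitude of 1.04 (log2 units, SE 0.10) and peaked at ZT 7.28 (SE 0.320 h), and that of Rbm3 had an amplitude of 0.65 (SE 0.05) and peaked at ZT 10.2 (SE 0.292 h), 2.96 h later. Hspa8 had 0.45 (SE 0.15) with its peak at ZT 16.8, with a gap to the fitted trough of Cirbp at ZT 19.3 of -2.44 h. Under DRF the 24-h amplitudes were smaller, at 0.56 (SE 0.14) for Cirbp, 0.23 (SE 0.06) for Rbm3 and 0.31 (SE 0.14) for Hspa8. The 24-h peak under DRF came 8.01 h earlier than under NRF for Cirbp (SE 1.10 h). It came 6.59 h earlier for Rbm3 (SE 0.989 h) and 6.82 h earlier for Hspa8 (SE 2.17 h). Under DRF the 24-h peak describes Cirbp and Hspa8 only loosely, as their 12-h amplitudes (below) were 1.35 and 2.51 times the 24-h ones.

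A 12-h cosine added to the 24-h one took up the pair of daily troughs of Cirbp under DRF. For Cirbp under DRF its amplitude was 0.76 (SE 0.06), which was 1.35 times the 24-h amplitude, with troughs at ZT 3.25 and ZT 15.3. For Hspa8 under DRF the amplitude was 0.78 (SE 0.05), with peaks at ZT 3.63 and ZT 15.6, within 0.374 h of the troughs of Cirbp. Rbm3 had a 12-h amplitude of 0.22 (SE 0.04) under DRF, and the troughs of this fitted cosine fell at ZT 4.58 and ZT 16.6. The levels of Rbm3 had no dip at DRF ZT4, where 76.8 ± 7.89 TPM overlapped ZT0 and ZT8. Under NRF the 12-h amplitudes were 0.29 (SE 0.08) for Cirbp, 0.11 (SE 0.05) for Rbm3 and 0.50 (SE 0.12) for Hspa8. With samples 4 h apart a 12-h cosine rests on 3 points a cycle, and a sharp daily trough also gives 12-h terms. Moving the NRF profile 12 h later gave a correlation with the DRF profile, over 6 clock times, of 0.49 for Cirbp, 0.65 for Hspa8 and 0.19 for Rbm3. Unmoved, these were -0.07, 0.45 and -0.01. The best match for Rbm3 was at 16 h, with 0.52.

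ZT24 is the clock time of ZT0 on the following day, and the choice of genes did not use the difference between them, so it was tested. Cirbp under NRF differed by 0.30 (log2 units, SE 0.14, 95% interval 0.03 to 0.58), with an adjusted p of 0.585 by limma over all 13469 genes tested, those with a mean of at least 1 TPM. Under DRF it differed by 0.20 (interval -0.08 to 0.48, limma adjusted p = 1.0). Rbm3 differed by -0.03 under NRF (interval -0.25 to 0.18, limma adjusted p = 0.950) and by 0.02 under DRF (interval -0.19 to 0.24, limma adjusted p = 1.0). Neither gene passed the threshold of 0.05, and the change from ZT0 to ZT24 differed between regimens by -0.10 (interval -0.49 to 0.29) for Cirbp and 0.06 (interval -0.24 to 0.36) for Rbm3. Of all genes tested, 0.713% were called between ZT24 and ZT0 under NRF. Under DRF 0 were called by limma, with 493 genes at an unadjusted p under 0.05.

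Mice of 1 group shared a regimen and a nominal time, and the choice of genes used group levels rather than differences among such mice. Each mouse was taken as its deviation from the mean of its group, and the 3 pairs of genes were correlated over the 56 mice. Cirbp and Hspa8 varied inversely, with r = -0.47 (two-sided permutation within groups, p = 0.00507, adjusted p = 0.0152) and rho = -0.34 (permutation p = 0.0276, adjusted p = 0.0425). Over all genes tested, the correlation with Cirbp within groups had a median of 0.08 and a 5th percentile of -0.19, and Hspa8 was number 16 from the lowest of 13468. Cirbp and Rbm3 varied together, with r = 0.33 (permutation p = 0.0241, adjusted p = 0.0362) and rho = 0.33 (permutation p = 0.0284, adjusted p = 0.0425). That value is just under the 95th percentile of all genes with Cirbp, 0.34. With Rbm3, all genes had a median of 0.15 and a 95th percentile of 0.37, and Cirbp was number 1117 from the highest of 13468. The permutation compares r with 0 and not with these shares. Rbm3 and Hspa8 had r = -0.02 (permutation p = 0.914, adjusted p = 0.914) and rho = 0.09 (permutation p = 0.571). The summed collecting duct markers, 5 genes, had a within-group correlation of 0.32 with Cirbp and 0.34 with Rbm3, and their part in the result was not tested.

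The inverse relation of Cirbp and Hspa8 leaned on a few mice. At DRF ZT12, mouse 4 had the highest Hspa8 of its group (2869 TPM, the other 3 at 1926 to 2022) and the lowest Cirbp (15.7 TPM, the others 23.6 to 28.7), with Rbm3 at 79.5 TPM inside the range of its group. Its Cirbp and Hspa8 lay on the side of the DRF ZT16 mice (15.9 to 20.8 and 3232 to 3612 TPM), and whether mice of a group differed in phase was not tested. At NRF ZT20, mouse 2 had the highest Hspa8 (1878 TPM) with the lowest Cirbp (18.9 TPM) and the lowest Rbm3 (40.3 TPM). At DRF ZT24 the order was inverse in all 4 mice, from 73.4 TPM Cirbp with 1221 TPM Hspa8 through 61.8 with 1312 and 50.3 with 1362 to 43.8 with 1555. Without the 2 mice whose Cirbp lay farthest from the median, which were DRF ZT12 mouse 4 and DRF ZT24 mouse 2, r was -0.37 (permutation p = 0.0384) and rho was -0.28 (permutation p = 0.0983). Within regimens r was -0.42 over the 28 NRF mice (permutation p = 0.0751) and -0.58 over the 28 DRF mice (permutation p = 0.0364). Leaving out the 2 farthest mice of each regimen gave -0.17 under NRF and -0.28 under DRF, with permutation p = 0.453 and 0.330. Leaving out the most extreme Cirbp values also narrows the range over which r is taken. Whether the relation within a regimen holds without those mice therefore cannot be told from these values. Without all mice numbered 2, r over both regimens was -0.37 with a permutation p of 0.108. For Cirbp and Rbm3, r was 0.32 without the 2 farthest mice, 0.28 under NRF (permutation p = 0.219) and 0.41 under DRF (permutation p = 0.0631). Under 2 other scalings of the reads that relation was just short of the threshold of 0.05, with permutation p = 0.0579 and 0.0526. Without the mice numbered 2, 3 or 4 it was also short of it, with permutation p = 0.146, 0.0890 and 0.136. With a replicate number left out, r of Cirbp and Rbm3 ran from 0.24 to 0.45.

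**Figure D4:**
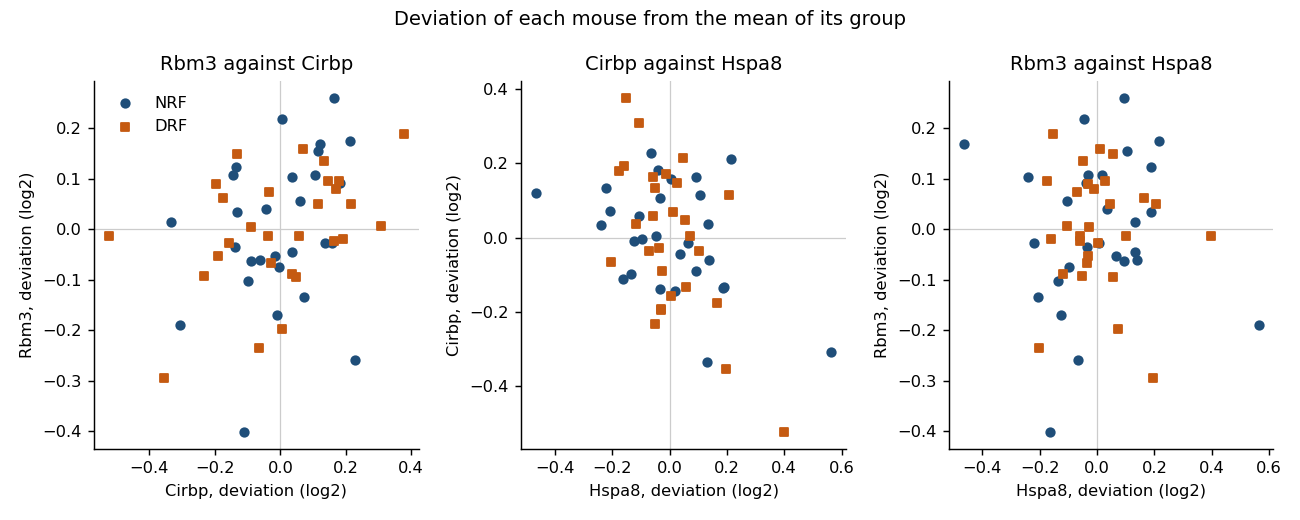
Deviation of each of 56 mice from the mean of its group on the log2(TPM + 1) scale, for Rbm3 against Cirbp (left), Cirbp against Hspa8 (middle) and Rbm3 against Hspa8 (right), with NRF as blue circles and DRF as orange squares. Within groups r is 0.33, -0.47 and -0.02, and in the middle panel the lowest point is DRF ZT12 mouse 4 and the point farthest right is NRF ZT20 mouse 2.

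To see whether Hspa8 stood alone as a warm-side gene, 20 genes for cytosolic and mitochondrial chaperones, their helpers and Hsf1 were taken, of which Hspa8 is 1. All 20 passed the filter on low values, and calls are counted over the 19 without Hspa8. Under DRF, 16 of the 19 had a 12-h component with a limma adjusted p under 0.05, against 25.4% of all 13469 genes tested, and these 16 had their first peak between ZT 2.81 and ZT 4.67, with a median of ZT 3.93. Under NRF 4 of the 19 had one, against 0.624% of all genes, and 15 of the 19 had a 24-h rhythm, against 53.3%. Under DRF 1 of the 19 (Fkbp4) had a 24-h rhythm, against 35.3%. Without the mice numbered 2 the count of 24-h rhythms under NRF was 10, and without those numbered 2 or 3 the count of 12-h components under NRF was 1 and 0. The 1 rhythm under DRF became 0, 0, 0 and 2 without the mice numbered 1, 2, 3 and 4. The median 12-h amplitude of the 19 under DRF was 0.41, beside 0.09 over all genes tested.

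At ZT4, where Cirbp was lower under DRF, 17 of the 19 were higher under DRF and 0 lower, against 10.3% of all genes higher. The median difference was 0.76 on the log2 scale, beside -0.05 over all genes. At ZT12, 10 were higher (7.34% of all genes), and at ZT8, 7 were higher (5.90%). At the times when Cirbp was higher under DRF, members were lower, with 10 at ZT0 (11% of all genes lower), 11 at ZT16 (3.89%), 9 at ZT20 (6.49%) and 8 at ZT24 (10.5%). In the opposite direction 0 of the 19 were called at each of the 7 times by limma, where the shares of all genes were 7.38% higher at ZT0, 17.8% lower at ZT4, 9.93% lower at ZT8, 11.8% lower at ZT12, 2.17% higher at ZT16, 10.7% higher at ZT20 and 4.98% higher at ZT24. Other scalings of the reads moved the share of called genes that were higher under DRF from between 32.2% and 62.2% over the 7 times to between 47.1% and 56.9% with median-of-ratios scaling, and no called member changed direction with it. The uncalled Dnajb1 at ZT20 went from 0.02 to -0.03 and Cryab at ZT8 from -0.04 to 0.01. Without the mice numbered 2, 3 or 4 the count at ZT16 was 1, 3 and 5. Calls over all genes at ZT16, in both directions, fell as well, from 816 to 273, 252 and 387.

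Among members with their own values, the cytosolic chaperone Hsp90ab1 (mean 1302 TPM) ranged from 953 ± 23.5 TPM at NRF ZT8 to 2051 ± 127 TPM at NRF ZT16. Hspd1, the mitochondrial chaperonin, moved only from 565 ± 49.6 TPM at NRF ZT8 to 765 ± 40.9 TPM at NRF ZT16. Hspb1, a small heat shock protein, ran from 29.6 ± 4.72 TPM at DRF ZT24 to 154 ± 74.1 TPM at NRF ZT16, with a wide spread at its peak. Hspa1a and Hspa1b, the inducible HSP70 genes, peaked at NRF ZT16 as well (90.9 ± 36.0 and 182 ± 90.6 TPM). Under DRF they did not follow Hspa8 from ZT12 to ZT16. Relative to the mean of the 14 groups (log2), Hspa1a had 0.71 and 0.19, Hspa1b 0.65 and 0.17, and Hspa8 0.19 and 0.82. Hspa1a and Hspa1b were not called for a 24-h rhythm under NRF (limma adjusted p = 0.115 and 0.117). Nor were they called for a 12-h component under DRF (limma adjusted p = 0.0542 and 0.159). Hspa1a and Hspa1b are near-identical copies whose reads were estimated fractions, so the split between them is uncertain. The reads of Stip1 and Cryab in this list were estimated fractions too. Over the 14 group means all 19 members other than Hspa8 correlated negatively with Cirbp, from -0.97 to -0.42 with a median of -0.86, and 14 were below -0.8, beside a median of 0.11 and 3.99% below -0.8 over all genes. With Rbm3 the 19 ran from -0.72 to 0.07 with a median of -0.50, beside -0.01 over all genes, and 0 were below -0.8. Correlations over group means, here and in the lists below, use the group levels with which Cirbp and Rbm3 were chosen. The lists, too, were chosen with earlier results of these data known, so these values are a description and not independent evidence.

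**Figure D5:**
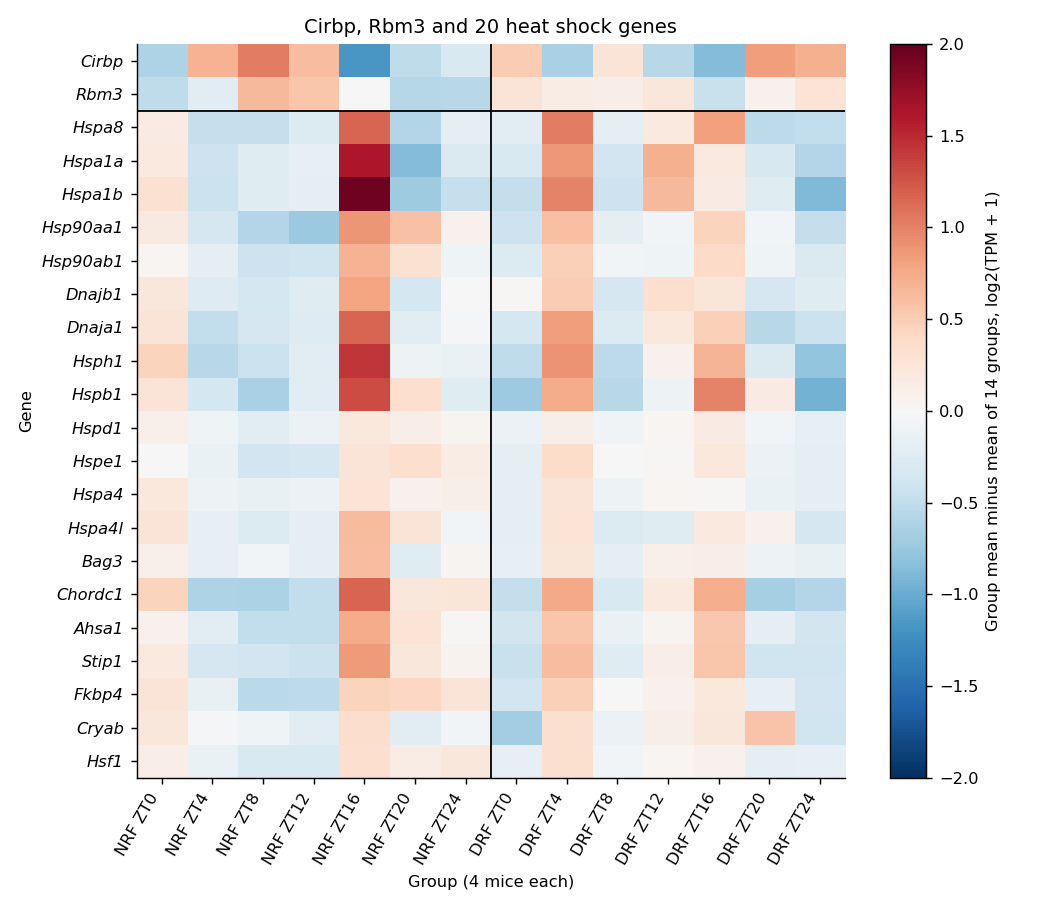
Group mean minus the mean of the 14 groups on the log2(TPM + 1) scale (colour, blue low and red high) for Cirbp, Rbm3 and 20 heat shock genes (rows) in the 7 NRF and 7 DRF groups (columns, 4 mice each). The red columns at NRF ZT16, DRF ZT4 and DRF ZT16 are blue for Cirbp, at -1.17, -0.65 and -0.86, and for Rbm3 they read -0.01, 0.15 and -0.45.

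Other RNA-binding genes of the family were read in the same way. Of 28 other Rbm genes, all passed the filter, 19 had a 24-h rhythm under NRF and 7 under DRF, and 13 had a 12-h component under DRF, against 53.3%, 35.3% and 25.4% of all genes. At ZT4, 8 were higher and 4 lower under DRF (10.3% and 17.8% of all genes). Without the mice numbered 1, 2 or 3 the 24-h rhythms under DRF were 2, 3 and 1, and without those numbered 1 the 12-h components were 8. The widest swings were those of Rbm12, Rbm14 and Rbm38, by 2.09, 2.08 and 1.98-fold between group means. Rbm14, a coactivator and paraspeckle protein, was highest at NRF ZT16 (34.5 ± 3.37 TPM) and lowest at DRF ZT8 (16.6 ± 1.27 TPM), and had r = -0.86 with Cirbp over the group means. Rbm12 had r = -0.81 and Rbm38 0.18. The most abundant, Rbm39, Rbm47 and Rbm42, varied 1.21, 1.36 and 1.20-fold. Across the 28 the median r was 0.15 with Cirbp and 0.09 with Rbm3, beside 0.11 and -0.01 over all genes, and members ran both ways. With Cirbp, 5 of 28 (17.9%) were below -0.8, against 3.99% of all genes, namely Rbm4, Rbm10, Rbm12, Rbm14 and Rbm45. Another 3, Rbm48 (0.89), Rbm34 (0.83) and Rbm17 (0.81), were above 0.8, against 8.46% of all genes.

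Genes for proteins with a cold shock domain, a different RNA-binding fold from that of CIRBP and RBM3, varied little. Of the 5 measured, 3 had a 24-h rhythm under NRF (Ybx1, Ybx3 and Carhsp1), and 0 had a 24-h rhythm or a 12-h component under DRF by limma, with 1 of each by both other scalings of the reads. The shares of all genes were 53.3%, 35.3% and 25.4%, and 3 of 5 is near the first. The 3 became 1, 0 and 1 without the mice numbered 2, 3 or 4. Group means spanned 1.17-fold for Ybx1, 1.24 for Ybx2, 1.20 for Ybx3 and 1.21 for Carhsp1.

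Genes described as regulating Cirbp or as sensing temperature were read as a further group. Of 7 tested, 6 had a 24-h rhythm under NRF (53.3% of all genes), 2 had one under DRF (35.3%) and 3 a 12-h component under DRF (25.4%). The 2 became 0, 1 and 1 without the mice numbered 1, 2 and 3, and 4 by both other scalings. Hnrnph1, a splicing regulator, went with Hspa8, from 65.5 ± 4.21 TPM at DRF ZT24 to 104 ± 20.6 TPM at NRF ZT16, with r = -0.89 with Cirbp. Srsf5, an SR splicing factor, went with Cirbp (r = 0.89), from 84.4 ± 3.98 TPM at DRF ZT16 to 140.3 ± 4.29 TPM at DRF ZT8. The channel Trpv4, which opens with warmth, ran from 70.5 ± 5.13 TPM at NRF ZT8 to 121 ± 4.73 TPM at NRF ZT20, with r = -0.84 with Cirbp and -0.78 with Rbm3.

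Of 5 transcripts described elsewhere as bound or regulated by CIRBP or RBM3, 2 had a 24-h rhythm under NRF (53.3% of all genes), 3 under DRF (35.3%) and 2 a 12-h component under DRF (25.4%). The 3 became 0, 0, 1 and 1 without the mice numbered 1, 2, 3 and 4, and the 2 became 1, 1 and 0 without those numbered 1, 2 and 3. Clock, a core clock activator, was highest at NRF ZT0 (21.2 ± 1.70 TPM) and lowest at NRF ZT12 (10.9 ± 1.49 TPM), with r = -0.52 with Cirbp and -0.76 with Rbm3. Rpa2, a subunit of the single-strand DNA binding complex, had r = 0.83 with Cirbp, between 4.82 ± 0.391 TPM at DRF ZT16 and 8.34 ± 0.636 TPM at NRF ZT12. Txn1, Rtn3 and Yap1 varied 1.21, 1.13 and 1.33-fold, with r of 0.03, -0.31 and -0.35 with Cirbp.

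The last list held genes known to follow systemic cues, temperature among them, when the local clock is stopped. The 4 members other than Hspa8 all had a 24-h rhythm under NRF (53.3% of all genes) and a 12-h component under DRF (25.4%). Of these, Hsp90aa1 was already counted in the heat shock list. It had r = -0.88 with Cirbp, with 819.7 ± 112 TPM at NRF ZT16 and 268 ± 65.1 TPM at NRF ZT12. Per2, the clock repressor, rose from 3.54 ± 0.847 TPM at NRF ZT4 to 66.9 ± 3.32 TPM at NRF ZT16, an 18.9-fold range, and had r = -0.51 with Cirbp and 0.21 with Rbm3. Noct, a deadenylase-like gene of the clock output, was highest at DRF ZT12 (26.9 ± 18.9 TPM), and followed Rbm3 (r = 0.76) rather than Cirbp (r = 0.16).

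Among 9035 other genes with a mean of at least 10 TPM, those most like Cirbp over the 14 group means were Zer1 (r = 0.984), Inafm1 (0.981), Xpa (0.980), Prorp (0.979) and Sugp1 (0.977). Xpa is a DNA damage recognition gene, and Zer1 is a substrate receptor of a ubiquitin ligase. Their log2 ranges were 0.40 to 0.94, against 2.20 for Cirbp, so their shape was alike and their swing smaller. Those most opposite were Chordc1 (r = -0.973), Thbd (-0.969), Mmaa (-0.968), Mtrf1l (-0.968) and Fgfr1op2 (-0.968), and Chordc1, a partner of HSP90, is in the heat shock list. Rbm3 stood at number 1908 in this order, with r = 0.582. The genes most like Rbm3 were Tcf25 (r = 0.939), Cfap126 (0.937), Gm39701 (0.934), Mpdu1 (0.934) and Gfus (0.923). The most opposite were Tmem135 (-0.945), Gnpda1 (-0.943), Gfm2 (-0.943), Slc8a1 (-0.928) and Nck2 (-0.917). None of these names stands on both lists. Within groups, the genes that varied most with Cirbp were Mnt (r = 0.68), Zfp784 (0.64) and Gpr146 (0.61), and with Rbm3 they were Nqo1 (0.72), Retsat (0.67) and Fibp (0.66).

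The libraries held 24.35 to 26.87 M (mega) recovered reads. Summed kidney markers were high in each library (4791 to 10427 TPM for 5 proximal tubule genes, and 3647 to 9077 TPM for 4 thick limb genes). Adipose markers, 5 genes, ranged from 0.218 to 2620.0 TPM between libraries, with group means of 0.877 at DRF ZT8 to 747 at NRF ZT12, and their within-group correlation was 0.05 with Cirbp and -0.00 with Rbm3. The adrenal list moved with Cirbp over the group means (r = 0.93), from 4.15 TPM at NRF ZT16 to 5.60 TPM at DRF ZT20. That sum was nearly all Star, at 4.53 TPM on average, and the steroid enzymes Cyp21a1 and Hsd3b1 averaged 0.0432 and 0.206 TPM, near 0. Within groups the adrenal sum had a correlation of 0.15 with Cirbp and 0.10 with Rbm3. The group means of blood, immune, liver, podocyte and collecting duct marker sums varied 2.99, 2.34, 2.25, 1.44 and 2.03-fold, with r between -0.58 and 0.39 with Cirbp or Rbm3. In whole kidney, fewer cells of a type and less RNA per cell cannot be told apart.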

How the data were processed

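Poly(A) RNA of 56 mouse kidneys was sequenced. The submitters' processing notes name HISAT2, Bowtie2, RSEM, mm10 and GRCm38.p6. The deposited values, which the authors named TPM, behave as a score: log2(1 + reads scaled by an effective library size) divided by gene length and scaled to a common sum. This formula was worked out from the values and replaced the linear TPM that the design had assumed. Reads were recovered by finding the step at which values became whole (tolerance 0.005), with GENCODE M21 exon lengths, and 99.58% of the values of whole-read genes were whole. Library kits did not mark strand.

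TPM were recomputed, and 13469 genes with a mean of at least 1 TPM were tested as log2(TPM + 1) with limma 3.58.1 (R 4.3.3, mean-variance trend, all 14 groups in 1 fit, or the 28 mice of a regimen for cosines), with Benjamini-Hochberg adjustment and a threshold of 0.05. Fold changes on this scale understate low genes. Within-group correlations used 100000 shuffles within groups and Benjamini-Hochberg adjustment over 3 relations (Python 3.11.15, numpy 2.4.6, pandas 2.3.3, scipy 1.17.1). The scripts were tested on simulated data. ZT24 was placed at the phase of ZT0 in cosines. P-values measure the spread between these mice. The members and lists were chosen with earlier results of these data known. Named genes were Cirbp, Rbm3 and Hspa8, the 5 most and 5 least like Cirbp and Rbm3 over the group means (mean of at least 10 TPM), the 3 most abundant and 3 most variable of each list, all of lists of up to 5, and the 3 with the highest within-group correlation. Fkbp4, Stip1, Cryab and Dnajb1 in the heat shock list and Rbm4, Rbm10, Rbm17, Rbm34, Rbm45 and Rbm48 were named after their values were seen. Lin28a, Lin28b, Cyp11b1 and Cyp11b2 were not analysed here. Values of some members of the lists are not reported here. Symbols and promoters came from RefSeq (GRCm38.p6), and 16929 gene identifiers had a symbol. Among 84 pairs of replicates, the lowest median squared difference was 2.79 times the counting noise, so no library was taken as deposited more than once. One NRF ZT24 column bore a number that no label of that group gives, and its mouse was kept in its group. Alternatives were other scalings, the deposited values taken as TPM, another pseudocount and other filters. Each replicate number was also left out, as was ZT24, and the replicate number was used as a block. Leaving out a number leaves fewer mice, and the share of all genes with a rhythm under it is not reported here.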

Additional observations from a re-analysis of the deposited data

Results flagged for a closer look

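In 4 of the 42 groups examined (14 groups for each of Cirbp, Rbm3 and Hspa8), 1 mouse lay far from the other 3 by Dixon's criterion, which chance meets in about 1 of 20 groups. Cirbp at NRF ZT20 was 18.9 TPM in mouse 2, against 24.9 to 25.7 TPM in the others, and that mouse had the highest Hspa8 of its group. Hspa8 at DRF ZT12 was 2869 TPM in mouse 4, against 1926 to 2022 TPM, and that mouse had the lowest Cirbp of its group. Rbm3 at NRF ZT8 was 82.1 TPM in 1 mouse, against 117 to 123 TPM in the others. Rbm3 at DRF ZT8 was 63.8 TPM in 1 mouse, against 77.9 to 80.5 TPM in the others.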

How the results depend on the processing

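The DRF minus NRF differences of Cirbp and Rbm3 kept their sign at all 7 times under every alternative run. Hspa8 at ZT20 (0.06) became -0.00 with the deposited values taken as TPM and ranged from -0.10 to 0.26 with a replicate number left out. Taking the deposited values as TPM, a log scale by construction, shrank the log2 ratio of highest to lowest group mean to 0.65 (NRF) and 0.47 (DRF) for Cirbp, 0.26 and 0.14 for Rbm3, and 0.22 and 0.19 for Hspa8. The lowest NRF group of Rbm3 was ZT24 in place of ZT20 with the deposited values, median-of-ratios scaling, CPM and the replicate block, without replicate 2 or 3, and without the NRF ZT24 library with no number. Within groups, Cirbp and Rbm3 had r = 0.31 (permutation p = 0.0579) with median-of-ratios scaling, 0.32 (permutation p = 0.0526) with CPM, 0.26 (permutation p = 0.0878) with the deposited values, and 0.24 to 0.45 with a replicate number left out. Cirbp and Hspa8 had r = -0.33 (permutation p = 0.0638) with the deposited values and -0.53 to -0.37 with a replicate number left out. Rbm3 and Hspa8 changed sign, to 0.04, 0.05 and 0.16 under those 3 settings and 0.07 without ZT24, and ranged from -0.30 to 0.19 with a replicate number left out. The cause was not tested for any of these.

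Of the 20 heat shock genes, Hspa8 included, those with a 24-h rhythm under NRF numbered 10 to 14 with a replicate number left out. Under DRF the 1 became 2 with median-of-ratios scaling, 2 with CPM, 3 with the deposited values, 0 without ZT24 and 0 to 2 with a replicate number left out. The 4 with a 12-h component under NRF became 2 with the deposited values and 0 to 4 with a replicate number left out. The 11 at ZT16 became 5 with the deposited values and 1 to 12 with a replicate number left out. Over all genes the 816 called at ZT16 became 711 and 252 to 837 under the same settings. In the other lists together, 48 genes were tested. The 14 with a 24-h rhythm under DRF became 8 without ZT24 and 4 to 10 with a replicate number left out. The 19 called at ZT4 became 12 to 19 with a replicate number left out, while the 3792 over all genes became 2079 to 3528. The ZT24 against ZT0 differences stayed short of the threshold under every alternative run, and those of Rbm3 changed sign, ranging from -0.05 to 0.04 under NRF and from -0.03 to 0.09 under DRF with a replicate number left out.

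Mice with the same replicate number did not vary together on average. Of 351 same-number pairs of libraries, 136 had a correlation of deviations over 0.1, with a mean of 0.01 and a lowest of -0.77. No general pairing by number was seen in these values, and whether some samples of a number shared a batch was not tested. With the replicate number as a block, the 4 heat shock genes with a 12-h component under NRF became 2, the within-group r was 0.38 for Cirbp and Rbm3 and -0.46 for Cirbp and Hspa8, and no other count of the lists moved by over 1.5 times. The NRF ZT24 library with no number had no block and was left out of that fit. It stayed in the fits that left out a number, and leaving it out itself, an alternative chosen after seeing the data, gave r = 0.34 and -0.47.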
